A study of Rattus norvegicus with 4 samples.

Results

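Autotaxin, the enzyme encoded by Enpp2, its product's receptors and the phosphatases that destroy that product were followed in rat L6 myoblasts. The 9 genes, Enpp2, Lpar1, Lpar2, Lpar3, Lpar4, Lpar6, Plpp1, Plpp2 and Plpp3, were chosen by name and with earlier results of these arrays known, and they were measured by 13 of the 31042 probe sets compared, or as 9 of 14217 genes. L6 is a rat skeletal myoblast line, here grown either as a myoblast sheet, a layer harvested in 1 piece from a thermoreactive dish, or as a monolayer culture. The 4 conditions were L6-HGF sheet, L6-HGF monolayer, L6-WT sheet and L6-WT monolayer, with 1 array each. L6-HGF cells carry human hgf in a pBabepuro retroviral vector and survived puromycin selection, and L6-WT is the wild-type line. No empty-vector line was among the arrays, so that an hHGF effect cannot be told apart from an effect of vector or selection, and effects of the thermoreactive dish and of the release from it cannot be told apart within a sheet effect.

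Lysophosphatidic acid (LPA) is a signalling lipid that is made mainly outside the cell. Secreted autotaxin cleaves choline from lysophosphatidylcholine, and the LPA so formed acts on G protein-coupled receptors that drive migration, survival and contraction through several G proteins. Lipid phosphate phosphatases on the cell surface end the signal by removing the phosphate of LPA.

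The deposited values are log2 values in which each probe set was centred on the median of its 4 arrays. They keep differences between arrays and hold no signal level, so that neither the presence of a transcript nor the myoblast markers could be read as levels, and a dim probe set looks like a bright one. Since the median of 4 values is the middle of the inner pair, the inner values of a probe set are mirror images around 0 by construction. Since each condition had 1 array, the differences have no replicate check and no test. As a measure of technical spread, the SD of the log2 differences of 45 bacterial control probe sets was 0.22 between the sheet arrays, 0.12 between the monolayer arrays, 0.16 between sheet and monolayer of L6-HGF and 0.18 between those of L6-WT, and none of them passed 2-fold. Where a gene had more than 1 probe set it is given as their mean, and the probe sets of such genes had a median SD between 0.13 and 0.15 (log2) in the 4 comparisons.

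Enpp2 was higher in sheets than in monolayers in both cell lines, and higher in the L6-HGF sheet than in the L6-WT sheet. Its single probe set had centred log2 values of 2.76 in the L6-HGF sheet, -0.84 in the L6-HGF monolayer, 0.84 in the L6-WT sheet and -1.39 in the L6-WT monolayer. Both sheet arrays thus lay above both monolayer arrays, and within each format the L6-HGF array lay above the L6-WT array. The sheet was 12.1-fold above the monolayer in L6-HGF (3.60, log2) and 4.68-fold in L6-WT (2.23). Counted from the most positive difference, these were places 4 and 12 among 14217 genes. L6-HGF was 3.80-fold above L6-WT in sheets (1.93), at place 3, and 1.47-fold in monolayers (0.55), at place 215. The hHGF effect was therefore larger in sheets by 1.37 (log2), a difference that could not be tested. All 4 differences exceeded the SD of the bacterial controls, which measures technical spread and not the spread between cultures. The range of Enpp2 over the 4 arrays, 4.15 (log2), was the one at place 5 of all genes, whose median range was 0.36. These values were known when the gene was chosen and are given as a description. With quantile normalization, the Enpp2 difference between L6-HGF and L6-WT sheets was 1.37 (log2), and the excess of the hHGF effect in sheets over monolayers was 0.70, under 2-fold.

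**Figure D1:**
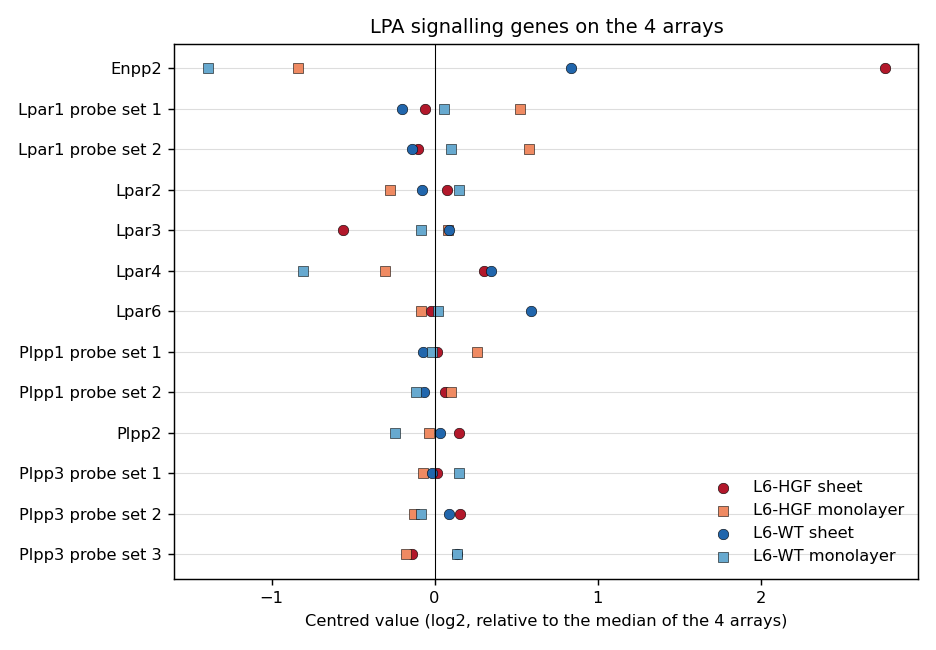
Centred log2 values (horizontal axis) of the 13 probe sets of the 9 genes (rows) on the 4 arrays, with 1 symbol per array, circles for sheets, squares for monolayers, red for L6-HGF and blue for L6-WT. Enpp2 spans from -1.39 in the L6-WT monolayer to 2.76 in the L6-HGF sheet, whereas the Plpp probe sets lie between -0.24 and 0.26.

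In L6-HGF sheets against L6-WT sheets, 1 of the 9 genes, Enpp2, was more than 2-fold higher, where 0.492% of all genes were, and none was more than 2-fold lower (0.95% of all genes). In monolayers, none of the 9 genes passed 2-fold between L6-HGF and L6-WT, where 0.225% of all genes were higher and 0.309% lower. Between sheet and monolayer, 1 of 9 genes, Enpp2, was more than 2-fold higher in L6-HGF sheets (1.17% of all genes), and 2 of 9, Enpp2 and Lpar4, in L6-WT sheets (0.717% of all genes). None was lower by that size, against 2.57% of all genes in L6-HGF and 0.492% in L6-WT. For the hHGF effect in sheets minus that in monolayers, 1 of 9, Enpp2, passed 2-fold upwards (0.471% of all genes) and none downwards (1.43%). The medians of the 9 genes were 0.09 and 0.21 for the hHGF effect in sheets and in monolayers, and 0.13 and 0.17 for the sheet effect in L6-HGF and in L6-WT. Over all genes, these medians lay between -0.02 and 0.03. The choice of the genes rests on these same differences, so nothing is read from their share.

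**Figure D2:**
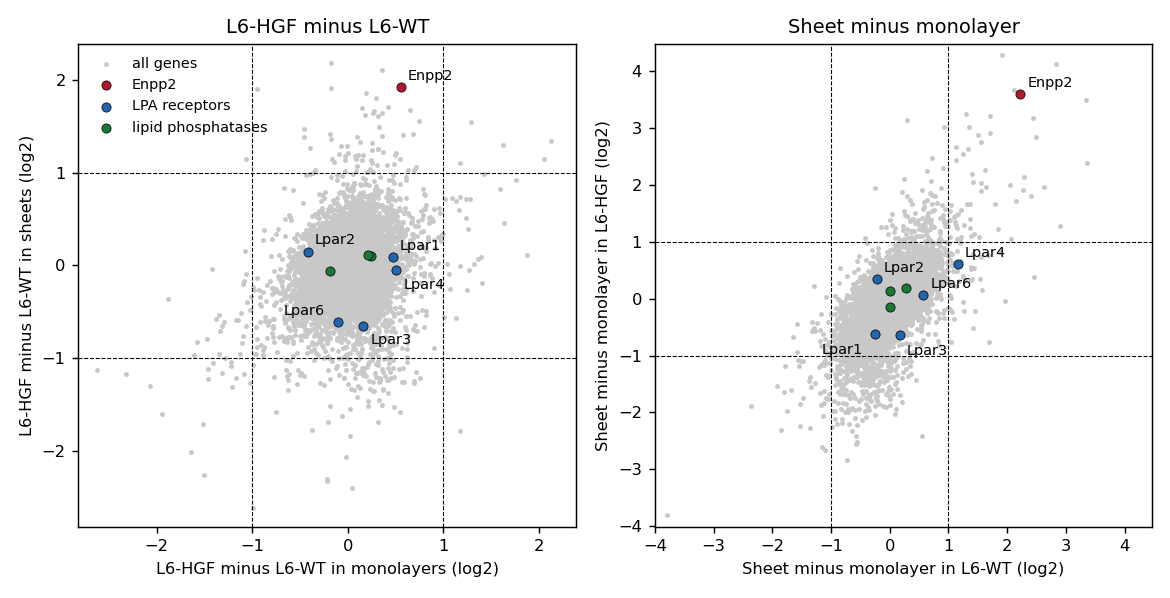
Left, L6-HGF minus L6-WT (log2) with monolayers on the horizontal and sheets on the vertical axis, and right, sheet minus monolayer (log2) in L6-WT (horizontal axis) and in L6-HGF (vertical axis), for 14217 genes, with 1 array per condition and dashed lines at 2-fold. Enpp2 stands at 1.93 in sheets on the left and at 3.60 in L6-HGF on the right, and Lpar4 is the receptor past 2-fold on the horizontal axis of the right panel (1.15).

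The receptors Lpar4 and Lpar6 belong to the purinergic branch of LPA receptors, related to the P2Y nucleotide receptors. Lpar4, which in mice takes part in the formation of blood vessels, had centred log2 values of 0.30 in the L6-HGF sheet, -0.30 in the L6-HGF monolayer, 0.35 in the L6-WT sheet and -0.81 in the L6-WT monolayer. Both sheets were above both monolayers, as for Enpp2, but the sheets of the 2 cell lines lay 0.04 (log2) apart, within the spread of the bacterial controls. The sheet was 1.52-fold above the monolayer in L6-HGF (0.60) and 2.22-fold in L6-WT (1.15), and the L6-HGF monolayer was 1.42-fold above the L6-WT monolayer (0.51). Lpar6, whose human counterpart is needed for hair growth, had 0.59 in the L6-WT sheet, with the other 3 arrays between -0.08 and 0.02. L6-HGF sheets were thus 1.53-fold below L6-WT sheets for Lpar6 (-0.61), and the sheet effect was 0.06 in L6-HGF and 0.57 in L6-WT.

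Lpar1, Lpar2 and Lpar3 form the other branch, the EDG family, which also holds the sphingosine-1-phosphate receptors. Lpar1, the most widely expressed LPA receptor, was highest in the L6-HGF monolayer. Its 2 probe sets had log2 values of 0.52 and 0.58 there, of -0.06 and -0.10 in the L6-HGF sheet, of -0.20 and -0.14 in the L6-WT sheet and of 0.06 and 0.10 in the L6-WT monolayer. Both probe sets gave the same order of the arrays. In the L6-HGF monolayer Lpar1 was 1.39-fold above the L6-WT monolayer (0.47) and in the L6-HGF sheet 1.55-fold below the L6-HGF monolayer (-0.63), whereas the sheet effect in L6-WT was -0.25 and the hHGF effect in sheets 0.09.

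Lpar3, a receptor that in mice is needed for the timing and spacing of embryo implantation, stood apart in the L6-HGF sheet alone. It had -0.56 (log2) there, 0.08 in the L6-HGF monolayer, 0.09 in the L6-WT sheet and -0.08 in the L6-WT monolayer. The L6-HGF sheet was 1.57-fold below the L6-WT sheet (-0.65) and 1.56-fold below the L6-HGF monolayer (-0.64), while the other 3 arrays lay within 0.17 (log2) of each other. Lpar2 spanned 0.42 over the arrays, with 0.07 in the L6-HGF sheet, -0.27 in the L6-HGF monolayer, -0.07 in the L6-WT sheet and 0.15 in the L6-WT monolayer. Its hHGF effect was 0.15 in sheets, within the spread of the bacterial controls, and -0.42 in monolayers. Over the 5 receptors, hHGF effects lay between -0.65 and 0.15 in sheets and between -0.42 and 0.51 in monolayers, with 3 of 5 below 0 in sheets and 3 of 5 above 0 in monolayers.

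Plpp1, Plpp2 and Plpp3 encode the lipid phosphate phosphatases, membrane enzymes with their active site turned outwards. Their differences were small in every comparison, with gene values between -0.06 and 0.11 for the hHGF effect in sheets, -0.19 and 0.25 in monolayers, -0.14 and 0.18 for the sheet effect in L6-HGF and -0.0015 and 0.28 in L6-WT. Plpp1, the first of the family, was 1.19-fold above L6-WT in the L6-HGF monolayer (0.25), with 0.28 and 0.22 from its 2 probe sets. Plpp2 had 0.15 in the L6-HGF sheet, -0.04 in the L6-HGF monolayer, 0.04 in the L6-WT sheet and -0.24 in the L6-WT monolayer, the same order of arrays as Enpp2 but over a range of 0.39 (log2). Plpp3, which is needed for vessel formation in mouse embryos, had 3 probe sets that did not run alike. In sheets their hHGF effects were 0.03, 0.07 and -0.28, and in monolayers -0.22, -0.04 and -0.31. The ranges of Plpp1 and Plpp3 over the arrays, 0.25 and 0.20, were below the median range of all genes, and those of the other 7 genes above it.

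The genes whose pattern was most like that of Enpp2 were taken as those with the smallest Euclidean distance of centred log2 values over the 4 arrays, among 14216 other genes. These were Abca4 (distance 0.34), a lipid transporter of photoreceptors, Ero1a (0.50), an oxidase that forms disulfide bonds in the endoplasmic reticulum, Ankrd37 (0.66), an ankyrin repeat protein, Acap1 (0.76), a GTPase-activating protein for the small GTPase ARF6, and Hilpda (0.78), a lipid droplet protein. All 5 had their highest value in the L6-HGF sheet, between 2.26 and 3.14 (log2), their next in the L6-WT sheet, between 0.62 and 1.37, and negative values in both monolayers. Sheet effects of these genes ran from 2.87 to 4.28 in L6-HGF and up to 2.83 (Acap1) in L6-WT, against 3.60 and 2.23 for Enpp2. The other 4 lay below Enpp2 in L6-WT, with 2.11 for Abca4, 1.91 for Ankrd37, 1.70 for Ero1a and a lower value for Hilpda. Their hHGF effects in monolayers, from -0.18 to 0.29, were below the 0.55 of Enpp2. Over all genes the median distance was 3.30, and 10 genes lay within a distance of 1. Among the other members Lpar4 came nearest, at 2.63 and place 231. The distance rests on 4 arrays that all genes share. The 5 genes were picked for closeness to Enpp2 on these arrays, so their shared order of arrays follows from the selection. Their negative monolayer values also follow from the centring, which mirrors the inner values around 0.

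**Figure D3:**
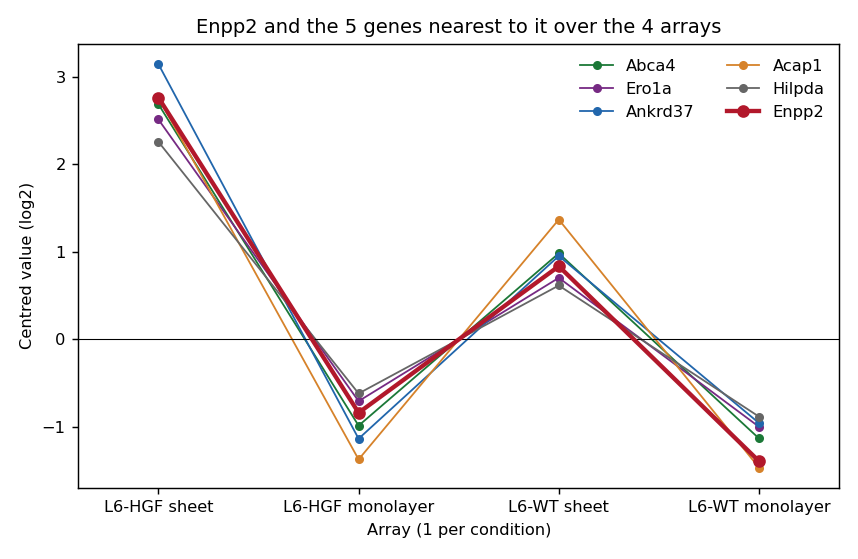
Centred log2 values (vertical axis) of Enpp2 (thick red line) and of the 5 genes nearest to it by Euclidean distance (thin lines) on the 4 arrays, 1 per condition. All lines are highest in the L6-HGF sheet, between 2.26 and 3.14, and below 0 in both monolayers, a likeness for which the 5 genes were selected.

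The bases around the annotated transcription start are shown for Ankrd37 and Hilpda, the named neighbours of Enpp2 whose windows held a match to the motifs below. Abca4 and Acap1, both nearer to Enpp2 than Hilpda, had windows without a match and are not shown. Lpar4 and Lpar3 are shown as the receptors past 2-fold in L6-WT sheets and lowest in L6-HGF sheets. The sequences are from RefSeq (build GRCr8), 250 bases before to 50 after the annotated start, which was not checked against other evidence. They were available for 5 of the 9 genes (Lpar3, Lpar4, Lpar6, Plpp1 and Plpp3) and not for Enpp2. Capitals mark ACGTG or its reverse complement CACGT, the core letters of hypoxia response elements and, where both overlap as CACGTG, of an E box.
Ankrd37, chr16:53001257-53001556, plus strand: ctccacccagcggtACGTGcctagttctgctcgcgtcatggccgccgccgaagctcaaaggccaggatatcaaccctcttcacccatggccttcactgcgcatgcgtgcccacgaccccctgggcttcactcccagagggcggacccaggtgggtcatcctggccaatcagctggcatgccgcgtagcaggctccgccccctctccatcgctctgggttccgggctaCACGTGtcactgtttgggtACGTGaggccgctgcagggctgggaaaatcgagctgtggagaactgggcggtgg
Hilpda, chr4:58836213-58836512, plus strand: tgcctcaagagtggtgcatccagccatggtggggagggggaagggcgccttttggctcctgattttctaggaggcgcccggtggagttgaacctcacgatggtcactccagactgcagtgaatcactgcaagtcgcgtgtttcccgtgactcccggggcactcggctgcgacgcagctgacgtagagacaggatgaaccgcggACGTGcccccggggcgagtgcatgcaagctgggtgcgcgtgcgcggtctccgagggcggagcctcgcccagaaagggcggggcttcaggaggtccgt
Lpar4, chrX:76106069-76106368, plus strand: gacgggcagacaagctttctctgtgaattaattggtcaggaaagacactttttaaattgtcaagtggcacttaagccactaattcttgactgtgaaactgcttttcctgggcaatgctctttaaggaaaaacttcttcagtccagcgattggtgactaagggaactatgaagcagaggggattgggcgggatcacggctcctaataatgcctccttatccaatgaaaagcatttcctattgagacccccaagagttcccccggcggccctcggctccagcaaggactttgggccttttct
Lpar3, chr2:237809095-237809394, plus strand: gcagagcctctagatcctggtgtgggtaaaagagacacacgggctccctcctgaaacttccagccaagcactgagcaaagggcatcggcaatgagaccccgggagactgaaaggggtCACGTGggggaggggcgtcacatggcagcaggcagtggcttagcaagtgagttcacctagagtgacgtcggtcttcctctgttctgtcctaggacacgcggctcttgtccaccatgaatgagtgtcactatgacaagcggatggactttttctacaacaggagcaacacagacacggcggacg
Either motif was found in 19.3% of 33469 windows of this length. Ankrd37 held 4 matches, with first bases at -236, -23, -22 and -4 from the start, of which those at -23 and -22 overlap. Hilpda held 1, at -47, and Lpar3 2 overlapping ones, at -133 and -132. In the Lpar3 window, an ATG before the annotated start opens a reading frame that runs to the end of the window. The annotated start of Lpar3 may thus lie inside coding sequence, and its matches are not shown to be near a site where transcription begins. The windows of Lpar4, Lpar6, Plpp1, Plpp3, Abca4 and Acap1 held none of these letters, so 1 of the 5 members with a window had a match, Lpar3, with the limit just given. A match is a run of letters and no evidence of binding.

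Beyond the 9 genes, 74 of 90 listed genes of LPA metabolism, signalling and response were measured, and 13 of them passed 2-fold in at least 1 of the 4 comparisons, where 4.76% of all genes did. Of the 13, 10 belong to the genes known to rise after LPA, most of which also answer serum and other stimuli. The others were Lclat1, Sphk1 and Gnai1, the last from a list cut after its values were seen. The lists were chosen with earlier results of these arrays known, so nothing is read from this share or from those of single lists. Of the relatives of Enpp2 in the ENPP family, Enpp1, Enpp3, Enpp4, Enpp5 and Enpp6 stayed within 2-fold in all comparisons, with values between -0.27 and 0.44 (log2). The 9 other enzymes that make LPA or its precursors, such as phospholipase Pla1a and the acyltransferase Gpam, also stayed within 2-fold, with a lowest value of -0.62. Both Pla1a and Gpam had -0.62 for the sheet effect in L6-HGF. Among 11 acyltransferases that use LPA or other lysophospholipids, Lclat1, which acylates lysocardiolipin, was the one past 2-fold, with sheet effects of -1.37 in L6-HGF and -1.36 in L6-WT. The 12 other lipid phosphatases and their relatives lay between -0.60 and 0.54 in the 4 comparisons, and P2ry10, a lysophospholipid receptor related to the P2Y receptors, between -0.06 and 0.20.

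Of 7 measured G protein alpha subunits, Gnai1, an inhibitory subunit to which LPA receptors couple, was the one past 2-fold. Over all genes, 4.76% passed 2-fold in at least 1 of the 4 comparisons. The list of subunits was cut from a longer one after its values were seen, so nothing is read from this count. Gnai1 had centred log2 values of 0.23 in the L6-HGF sheet, 1.33 in the L6-HGF monolayer, -0.23 in the L6-WT sheet and -0.31 in the L6-WT monolayer. The L6-HGF monolayer thus stood above the other arrays, with an hHGF effect of 1.64 in monolayers and 0.46 in sheets, and the sheet effect was -1.10 in L6-HGF and 0.07 in L6-WT. In the related sphingosine-1-phosphate pathway, 1 of 8 genes passed 2-fold, and none with quantile normalization. Sphk1, the kinase that makes sphingosine-1-phosphate, had a sheet effect of -1.22 in L6-HGF and -0.66 in L6-WT. The receptor S1pr1 was below 0 in all 4 comparisons, between -0.66 and -0.47, and S1pr2, S1pr3 and S1pr5 lay between -0.52 and 0.43.

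Genes known to rise after LPA in cultured cells, most of which also answer serum and other stimuli, moved in both directions. In L6-HGF sheets against L6-WT sheets, 7 of 21 were more than 2-fold lower (0.95% of all genes) and 1 was higher (0.492%), with a median of -0.32 (log2). The lower genes were the early response factors Egr1, Fos, Fosb and Junb, the chemokines Cxcl1 and Ccl2, and Ccn1, a matricellular protein, and the higher gene was Vegfa. In L6-WT, sheet against monolayer, 6 of 21 were more than 2-fold higher (0.717% of all genes) and 1 was lower (0.492%). The higher ones were Fos (2.46), Cxcl1 (1.68), Junb (1.56), the MAP kinase phosphatase Dusp1 (1.38), Ccl2 (1.26) and Vegfa (1.05), and the lower one the nuclear receptor Nr4a1 (-1.56). In L6-HGF, 1 of 21 was more than 2-fold higher in the sheet, Vegfa (1.65), and 3 were lower, Egr1 (-2.84), Ccn1 (-1.25) and Nr4a1 (-1.08), where 1.17% of all genes were higher and 2.57% lower. With quantile normalization, Ccn1 passed 2-fold in none of the 4 comparisons. In monolayers none of the 21 passed 2-fold between L6-HGF and L6-WT, and the median was -0.02. Fos is the mean of 2 probe sets that disagreed, of which 1 had 4.83 in the L6-WT sheet and between -0.55 and 0.04 on the other arrays, and the other lay between -0.07 and 0.17.

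**Figure D4:**
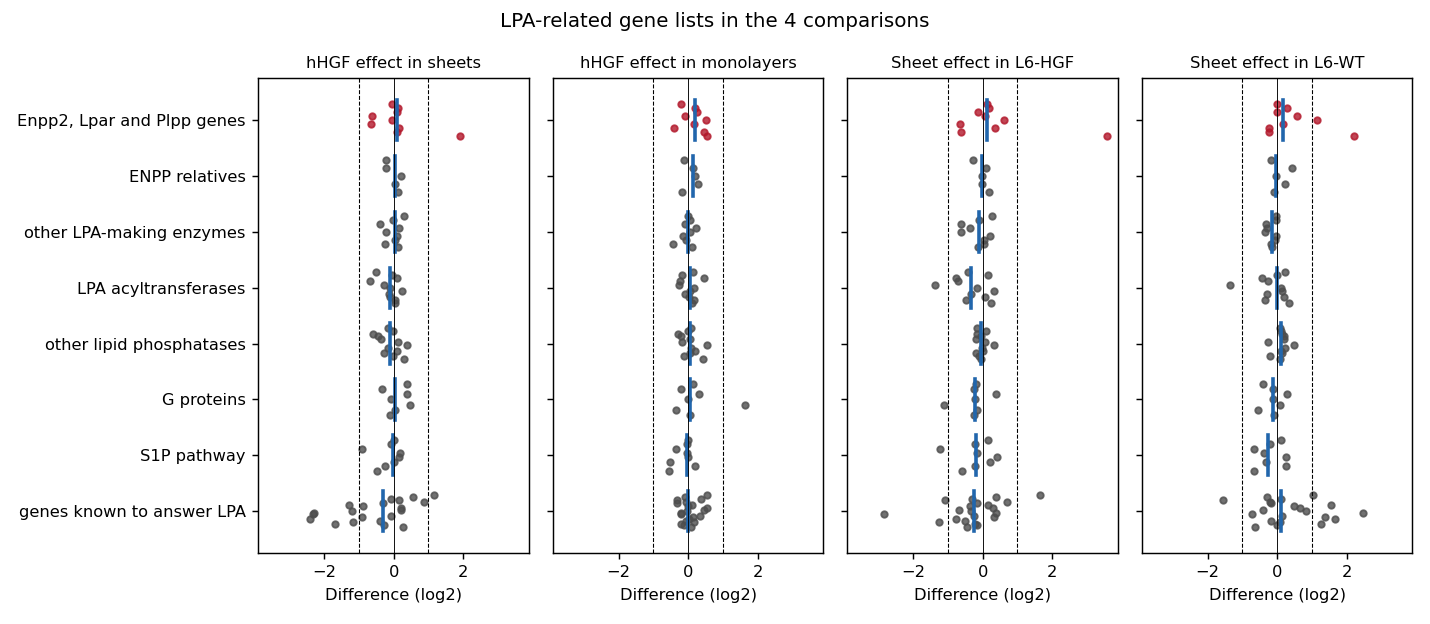
Log2 differences (horizontal axes) of the genes of 8 lists (rows) in the 4 comparisons (panels), with 1 point per gene, spread vertically for legibility, a blue bar for each median and dashed lines marking 2-fold. In the top row, in red, Enpp2 is the point at 1.93, 0.55, 3.60 and 2.23 from left to right, and in the bottom row 7 genes known to answer LPA lie below -1 in the first panel.

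Fat cells and fibroblasts are known sources of autotaxin, so their markers are given beside Enpp2. Of 10 adipocyte markers, none was past 2-fold between sheet and monolayer in either cell line, with medians of -0.02 in L6-HGF and 0.29 in L6-WT. Over all genes, 1.17% were higher and 2.57% lower in L6-HGF sheets, and 0.717% and 0.492% in L6-WT sheets. Of the 10, 1, Cfd, was more than 2-fold lower in the L6-HGF sheet than in the L6-WT sheet (-1.17), where 0.95% of all genes were. Lpl, lipoprotein lipase, had the sheet effects farthest from 0 of this list, -0.87 in L6-HGF and -0.77 in L6-WT, and Adipoq, the adipocyte hormone adiponectin, had 0.34 and 0.12. Of 12 fibroblast markers, 4 were more than 2-fold higher in sheets than in monolayers in each cell line (1.17% of all genes in L6-HGF and 0.717% in L6-WT). None was more than 2-fold lower (2.57% and 0.492% of all genes). The higher ones were Dpt (3.48 in L6-HGF and 3.34 in L6-WT), Postn (2.84 and 2.50), Dcn (2.39 and 3.36) and Lum (1.04 and 2.07). The medians of the list were -0.20 in L6-HGF and 0.14 in L6-WT. Col1a1 had -0.86 and -0.43, and Col1a2, Col3a1, Thy1 and Fbln1 were also below 0 in both cell lines. Between L6-HGF and L6-WT sheets, all 12 were below 0, from -2.26 for Mfap5 to -0.20 for Tcf21, the latter within the SD of the bacterial controls (0.22). Of the 12, 3 were more than 2-fold lower (0.95% of all genes). None of 7 endothelial and 7 macrophage markers passed 2-fold in any of the 4 comparisons. Over all genes, 4.76% passed it in at least 1 of them. Of 8 myoblast markers, Mymk, which is needed for myoblast fusion, was past 2-fold, lower in L6-HGF than in L6-WT in sheets, narrowly, and in monolayers (-1.28). Of 6 smooth muscle markers, Smtn was past 2-fold, with a sheet effect of -1.17 in L6-HGF. With so few markers in each list, nothing is read from these counts. The part of other cell types in the Enpp2 values was not tested.

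A limma model over all 4 arrays, with format and cells as terms and 1 residual degree of freedom, gave 0 of 31042 probe sets (0% called) at an adjusted p under 0.05 for the sheet effect shared by both cell lines and 0 for the hHGF effect shared by both formats. The lowest adjusted p in limma was 0.102 for the sheet effect and 0.505 for the hHGF effect. At an unadjusted p under 0.05, 2753 probe sets were higher and 3580 lower in sheets, and 1475 were higher and 1502 lower in L6-HGF. The error term of this model takes in any real interaction of cells and format as well. A count of 0 in this fit does not show that genes did not differ.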

How the data were processed

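RNA of 4 L6 cultures was hybridised to Affymetrix rat genome arrays, 1 per condition. The authors normalized the arrays to median with RMA, which the submitters' processing notes also name (version not given in the sources used here), and deposited log2 values. In the deposited file, each probe set has a median of 0 over its 4 arrays within rounding. That the base of the logarithm is 2 was checked against published folds. Precision is limited by the number of arrays.

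After 57 control probe sets were left out, 31042 were compared. Of these, 20826 had 1 gene symbol in GEO's platform annotation, 436 had several and 9780 were not listed, which gave 14217 genes as means of their probe sets. The array's genome build was not stated, so positions are given only for the RefSeq windows. A 2-fold threshold was used as in the study. Fits used limma 3.58.1 in R 4.3.3 with Benjamini-Hochberg adjustment, and were tested on simulated data under a pair of noise models. With noise drawn from the observed residuals, which was tried first, limma called none of the changed probe sets at small and middle change sizes and most of them only at the largest. The other model, drawn from the prior variance limma itself assumes, was added after that outcome, and there the middle size was recovered too. Other steps used Python 3.11.15, pandas 2.3.3, numpy 2.4.6 and matplotlib 3.10.9. Alternatives were quantile normalization of the centred values, centring each array, medians over probe sets, leaving out probe sets that can detect several transcripts, calls by any probe set, a 1.5-fold threshold and limma without the other factor.

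Named are the 9 members, listed genes past 2-fold in any comparison, ENPP relatives, S1P receptors and the 5 genes nearest to Enpp2. Other list genes were named after their values were seen. The members and lists were chosen with earlier results of these data known. Lpar5 was not analysed here. The list of G protein subunits was cut from a longer list of signalling genes after its values were seen, and the others are not reported here.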

Additional observations from a re-analysis of the deposited data

Results flagged for a closer look

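Lpar3 and Lpar2 had effects of opposite sign that both exceeded the SD of the bacterial controls. The hHGF effect on Lpar3 was -0.65 (log2) in sheets and 0.16 in monolayers, from 1 array per condition. The sheet effect on Lpar2 was 0.35 in L6-HGF and -0.22 in L6-WT. The 0.16 of Lpar3 lay inside the range of these controls between the monolayer arrays, -0.18 to 0.35, so that its sign carries no weight. Neither difference between the effects was tested, since the design leaves no residual for it.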

How the results depend on the processing

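Quantile normalization, which could only act on centred values and gives each array the same spread of deviations, changed most. With it, 0 of the 9 genes passed 2-fold in the hHGF effect in sheets minus that in monolayers, as Enpp2 had 0.70 (log2) in place of 1.37. For the common sheet effect, 53 probe sets had a limma adjusted p under 0.05. That of Enpp2 was among them, with a limma adjusted p of 0.0434 against 0.158 in the main fit. Enpp2 was chosen with its values on these arrays known, so this call lends it no support. With quantile normalization, Enpp2 had 1.37 between L6-HGF and L6-WT sheets, 0.67 between monolayers, and sheet effects of 3.30 in L6-HGF and 2.60 in L6-WT. With a 1.5-fold threshold, 3 of the 9 genes passed between L6-HGF and L6-WT sheets (Enpp2, Lpar3 and Lpar6) and 4 between sheet and monolayer of L6-HGF (Enpp2, Lpar1, Lpar3 and Lpar4). Of the 13 listed pathway genes past 2-fold in any comparison, 11 remained with quantile normalization, without Sphk1 and Ccn1. The other 30 counts under alternatives lay within 1.5 times the main count, and 174 of 180 gene values moved by less than the SD of the bacterial controls. Much of this was fixed in advance. No member probe set was among those that can detect several transcripts, so leaving these out could change no member value. Medians over probe sets could change only Plpp3. The 6 values that moved further were all of Enpp2 or Lpar4 under quantile normalization. The sign of a member's value changed for Plpp3 alone, whose sheet effect in L6-WT was 0.0035. No pairing of replicates was possible because each condition had 1 array. Signal over background is unknown.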
